A study of Rattus norvegicus with 3 samples.

Results

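This account follows 3 probes for ErbB receptors, the family of receptor tyrosine kinases that neuregulins and epidermal growth factor (EGF) act on, on arrays of cultured rat Schwann cell precursors. The probes were chosen by identifier, with no threshold on signal, as ENSRNOG00000006450, meant as Erbb2, ENSRNOG00000004964, meant as Erbb3, and ENSRNOG00000004332, meant as Egfr. All 3 were found, out of 20174 gene probes, and each gene has a single probe on the array. The names were not checked: the arrays carry Ensembl identifiers alone, and none of them (0 of 20174) matched the gene table used here. The names are therefore used below as labels of the probes.

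Schwann cell precursors are the embryonic glia of peripheral nerve that come from neural crest. The 3 samples, replicates 1 to 3, form a single group of rat cells grown in modified Sato medium under culture conditions labelled normal. No genotype, strain, age or added factor is given, one protocol field speaks of oligodendrocyte precursors in place of Schwann cell precursors, and whether the samples came from separate cultures is not stated, so p-values measure only the spread between these samples, which may be technical. Each total RNA sample was amplified, labelled with Cy5 and hybridized to a single-colour 3D-Gene array. Without gene names for the other probes, the markers of Schwann cells, oligodendrocyte precursors, fibroblasts and other cell types, and the ligands and effectors of the ErbB pathway, were not analysed here.

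ErbB receptors pair on binding a ligand and then phosphorylate each other. ErbB3 binds neuregulins but has very weak kinase activity of its own, and ErbB2 binds no known ligand but supplies an active kinase, so the pair works as the neuregulin receptor of the Schwann lineage. Axonal neuregulin acting through this pair is known to be needed for the survival and migration of Schwann cell precursors in the mouse. EGFR binds EGF, transforming growth factor alpha and related ligands, and can pair with ErbB2.

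The Erbb3 probe was bright, the Egfr probe intermediate and the Erbb2 probe dim on all 3 arrays. The Erbb3 probe lay above the upper quartile of gene probes, the Egfr probe between the median and the upper quartile, and the Erbb2 probe below the median. All 3 probes exceeded the background threshold on all 3 arrays, where 80.4% of gene probes did, so the call itself does not set them apart. The threshold was the mean plus 2 SD of spots labelled blank, at 56.8, 58.1 and 65.4 scanner units in replicates 1, 2 and 3. The spot labels differed between arrays, with 5808 spots labelled blank in replicate 2 against 1344 in replicates 1 and 3. On the positions blank on all arrays, the threshold of replicate 2 was 57.8 units. None of the receptor spots had a failed flag at any of the 3 scanner gains.

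**Figure D1:**
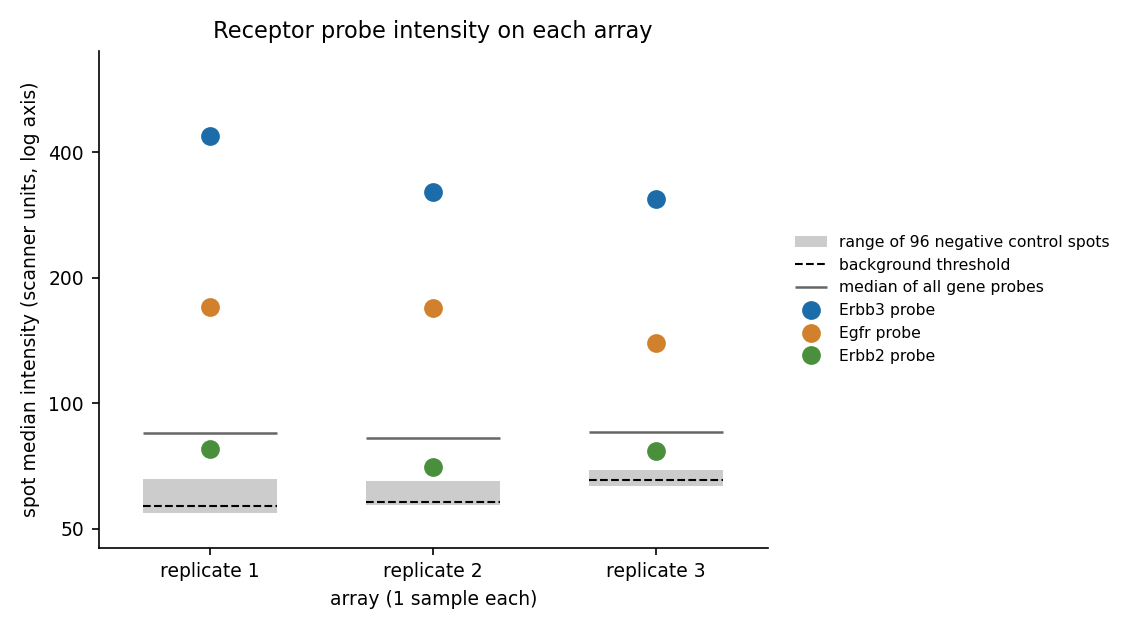
Spot median intensity of the 3 receptor probes (log axis, scanner units) on each array, 1 point per probe and array, with the range of the 96 negative control spots as a grey box, the background threshold as a dashed line and the median of all gene probes as a grey line. The Erbb3 and Egfr points lie above the gene median on every array, and the Erbb2 points lie between the negative controls and that median.

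Erbb3, the receptor that binds neuregulin, had the strongest probe signal of the 3. Its spot median was 438 units in replicate 1, 321 for replicate 2 and 309 for replicate 3, or 382, 265 and 245 units over the mean of blank spots. Replicate 1 was thus the high array, and replicates 2 and 3 lay close together. The upper quartile of all gene probes was 263, 238 and 214 units on the same arrays, below the Erbb3 spot each time. Its rank from the brightest gene probe was 3479, 4071 and 3739 of 20174. That placed it above 82.8%, 79.8% and 81.5% of gene probes, a mean of 81.3% ± 1.5 (SD, n = 3).

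Egfr, the receptor for EGF and related ligands, gave an intermediate signal. Its spot median was 170 units in replicate 1, 169 for replicate 2 and 139 for replicate 3, or 115, 112 and 75.5 units over the blank mean. Replicates 1 and 2 were nearly equal and replicate 3 was lower. The probe was brighter than 67.0%, 69.1% and 65.7% of gene probes, with a mean of 67.2% ± 1.7 (SD, n = 3). It ranked 6657, 6237 and 6929 from the top.

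Erbb2, the partner that supplies the active kinase, had a dim probe. Its spot median was 77.6 units in replicate 1, 70.2 for replicate 2 and 77.0 for replicate 3, against a median of all gene probes of 84.7, 82.5 and 85.5. The excess over the blank mean was 22.2, 13.2 and 13.2 units. It was brighter than 46.6%, 41.4% and 43.7% of gene probes, with a mean of 43.9% ± 2.6 (SD, n = 3). Among gene probes above background on the array, these shares were 37.4%, 34.3% and 32.9%.

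Although dim, the Erbb2 spot was brighter than all 96 negative control spots on every array. Of all gene probes, 61.6% were so on all 3 arrays with no failed flag, so this does not set Erbb2 apart. The highest negative control spot read 65.8, 65.0 and 69.3 units in replicates 1, 2 and 3. Spots labelled no probe, which hold no gene, were dimmer than the Erbb2 spot in 99.9% of 5273 cases in replicate 1, 100% of 809 in replicate 2 and 99.9% of 5273 in replicate 3. Fewer spots carried this label in replicate 2, where more were labelled blank. The Erbb3 and Egfr spots were brighter than every negative control and every no probe spot of their array.

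Bright spots lay next to the dimmer receptor spots, which a comparison chosen after seeing the values took into account. Among the 8 spots around the Erbb2 spot, the brightest read 4837, 6467 and 3270 units in replicates 1, 2 and 3. On the same arrays 448, 414 and 450 blank, no probe or negative control spots had a neighbour at least that bright, and 445, 414 and 448 of them were dimmer than the Erbb2 spot. The highest of the blank, no probe or negative control spots in this comparison read 89.9 units in replicate 1 and 78.6 in replicate 3, above the Erbb2 spot. In replicate 2 it read 69.3 units, just under the 70.2 of the Erbb2 spot. The brightest neighbour of the Egfr spot read 2397, 1962 and 1872 units. All 557, 597 and 555 spots of the same 3 kinds with a neighbour that bright were dimmer than the Egfr spot. This comparison matched the brightest neighbour only. The median of the 8 spots around the Egfr spot was 205, 164 and 195 units, against 65.4, 64.6 and 71.9 around the Erbb2 spot, and it was not matched. Around the Erbb3 spot no neighbour exceeded 95.6, 87.8 and 88.3 units.

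**Figure D2:**
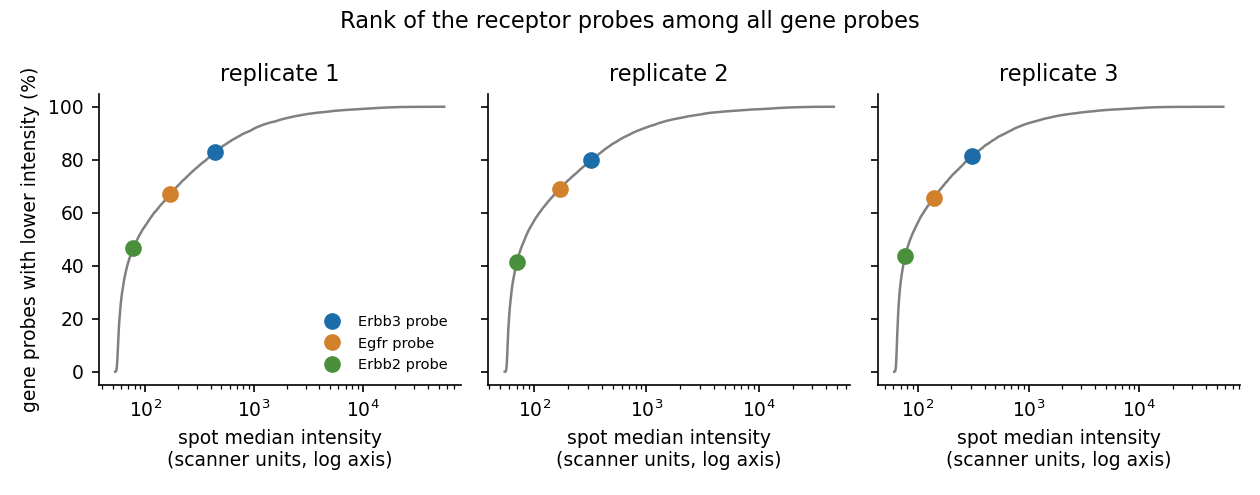
Share of the 20174 gene probes with a lower spot median (percent) against spot median intensity (log axis, scanner units), 1 panel per array, with all gene probes as a grey curve and the receptor probes as points. On each array the Erbb3 point lies between 79.8% and 82.8%, the Egfr point between 65.7% and 69.1% and the Erbb2 point between 41.4% and 46.6%.

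For comparison between arrays, spot intensities were corrected by normexp in limma (offset 50), quantile normalized over gene probes and put on the log2 scale. On that scale the Erbb3 probe had levels of 8.58, 8.30 and 8.45 in replicates 1, 2 and 3 (mean 8.44 ± 0.14, SD, n = 3). The Egfr probe had levels of 7.23, 7.38 and 7.14 (mean 7.25 ± 0.12, SD, n = 3). The Erbb2 probe had levels of 6.16, 6.03 and 6.08 (mean 6.09 ± 0.069, SD, n = 3). The ranges of the 3 probes did not overlap.

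The order of signals, Erbb3 over Egfr over Erbb2, held on all 3 arrays, and the gaps were wider than the spread over arrays. The Erbb3 signal exceeded the Egfr signal by 1.35, 0.92 and 1.31 log2 units on the 3 arrays in order (mean difference 1.19 ± 0.24, SD, n = 3). The Egfr signal exceeded the Erbb2 signal by 1.07, 1.35 and 1.06 (mean difference 1.16 ± 0.17, SD, n = 3). Replicate 2 narrowed the upper gap and widened the lower one, as its Egfr level was the highest and its other receptor levels the lowest of the 3 arrays. Different probes bind their targets with different efficiency, so this is an order of probe signals and not of transcript amounts, and no test was made between probes.

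The sizes of the gaps rested on the background treatment, while the order did not. Over 8 ways of treating the values, each with 3 arrays, the order was the same in 24 of 24 cases, all drawn from the same spots. Normexp with quantile normalization, median scaling, the subtracted blank mean and the deposited values keep the order within an array by construction. Only cyclic loess, subtraction of block medians and the uses of local background could have changed it. Where the mean of blank spots was subtracted in place of normexp, without an offset, the Egfr signal exceeded the Erbb2 signal by a mean of 2.66 ± 0.39 (SD, n = 3) on the log2 scale. The offset of 50 compresses dim probes such as Erbb2 by construction, and the background correction changed along with it there. With normexp on the local background of each spot it did so by 0.47 ± 0.13. The Erbb3 signal exceeded the Egfr signal by 1.57 ± 0.33 and 1.30 ± 0.14 in the same settings. With local background simply subtracted, the Erbb3 signal exceeded the Egfr signal by 2.20 ± 0.31 and the Egfr signal exceeded the Erbb2 signal by 1.64 ± 0.23.

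In the authors' deposited value table, which holds normalized intensity on a linear scale, the order was the same by construction. Each column is a linear scaling of the spot medians of its array. The Erbb3 probe had values of 178, 174 and 149 in replicates 1, 2 and 3, against 53.5, 73.7 and 45.9 for the Egfr probe and 10.4, 8.69 and 8.01 for the Erbb2 probe. The median of the listed probes is 25 in each column, so that Erbb3 and Egfr were above it and Erbb2 below it on every array. The high array for the Egfr probe was replicate 2 in this table, although its spot medians in replicates 1 and 2 differed by less than 1 unit. The table multiplies the excess over the blank mean by 0.467 in replicate 1, 0.656 in replicate 2 and 0.609 in replicate 3.

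No receptor probe passed the test for a wider spread between samples than that of probes of its level. The spread was tested with limma, by an intercept-only fit on the 16226 gene probes called on every array and the tail p of the level-dependent variance prior, with Benjamini-Hochberg adjustment over all of them. The unadjusted p was 0.367 for Erbb2, 0.617 for Erbb3 and 0.590 for Egfr, and the limma adjusted p was 0.995 for each. Of all probes fitted, 0.0123% (2 probes) passed this test. The highest and lowest arrays differed by 0.14 for Erbb2, 0.28 for Erbb3 and 0.24 for Egfr on the log2 scale, short of a 2-fold range, which 0.622% of these probes had. These ranges carry the offset. With the blank mean subtracted they were 0.45, 0.29 and 0.44, and they were 0.37, 0.26 and 0.68 in the deposited table, still short of 2-fold where 9.09% and 16.3% of probes reached it.

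Set among the 500 probes nearest to them in mean level, the receptor probes lay near the middle in spread in this setting. The SD of the Erbb2 probe, 0.069, was higher than that of 62.6% of its neighbours in level, whose median SD was 0.059. The SD of the Erbb3 probe, 0.14, was higher than 43.0% of its neighbours, with a median of 0.16. The SD of the Egfr probe, 0.12, was higher than 41.0%, with a median of 0.14. This place moved with the background treatment. In the deposited table, shares of 24.6%, 22.2% and 70.4% of the neighbours in level had a lower SD than Erbb2, Erbb3 and Egfr, with normexp on local background 16.8%, 13.6% and 15.6%, and with local background subtracted 2.8%, 11.4% and 7.2%.

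**Figure D3:**
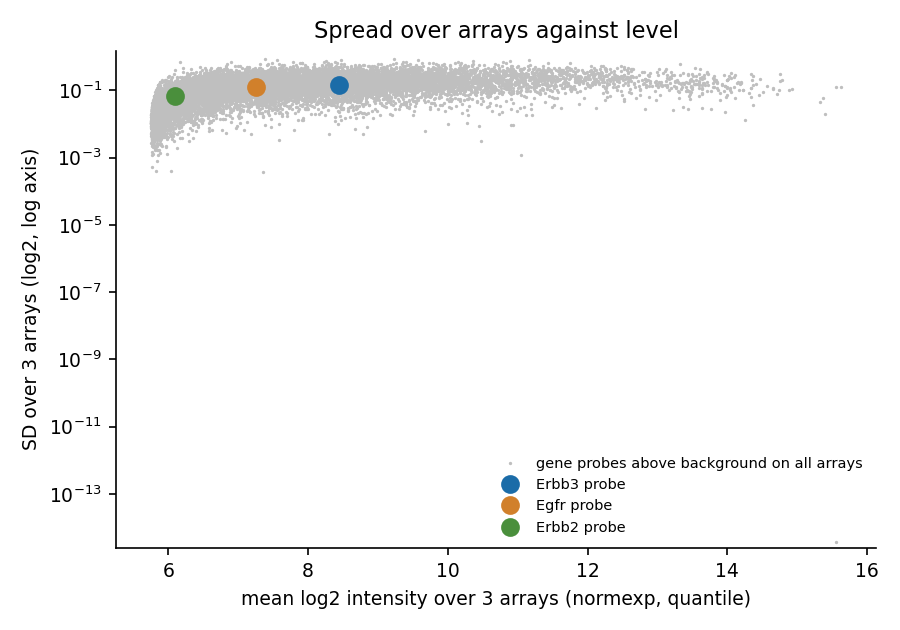
SD over the 3 arrays (log2, log axis) against mean log2 intensity of the 16226 gene probes called on every array (grey), with the 3 receptor probes marked. Each receptor point lies inside the cloud of probes of its level, at an SD of 0.069 for Erbb2, 0.14 for Erbb3 and 0.12 for Egfr.

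The high array differed between the receptors. For Erbb3 and Erbb2, replicate 1 was highest and replicate 2 lowest, with replicate 2 at -0.22 and -0.095 on the log2 scale from the mean of the other arrays. For Egfr, replicate 2 was highest, at 0.20 above the mean of the others, and replicate 3 lowest. None of these differences goes beyond the spread tested above.

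Which array was highest depended on how local background was used. The scanner's local background beside the Erbb3 spot was 318, 71.4 and 171 units in replicates 1, 2 and 3, or 72.7%, 22.2% and 55.5% of the spot. Subtracting it left 119, 250 and 137 units, so that the array with the highest spot became the lowest. For Egfr the local background was 144, 125 and 102 units, leaving 25.8, 44.5 and 37.3, and for Erbb2 it was 70.1, 53.1 and 66.0 units, leaving 7.48, 17.1 and 11.0. All 3 net values were therefore highest in replicate 2 and lowest in replicate 1, before any normalization between arrays. Gene spots in general had a median local background share of 87.0%, 71.2% and 81.2% in replicates 1, 2 and 3. The shares of the Erbb3 and Erbb2 spots were likewise highest in replicate 1 and lowest in replicate 2. That of Egfr was highest in replicate 1 but about equal in replicates 2 and 3, at 73.7% and 73.3%. The array order of net values over all gene spots was not examined. After median scaling, the log2 net values were 7.42, 7.45 and 7.10 for Erbb3, 5.21, 4.96 and 5.22 for Egfr and 3.42, 3.58 and 3.46 for Erbb2.

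The Egfr spot in replicate 2 had a high local background for its brightness. It came to 73.7% of the spot, where the 500 gene spots nearest in intensity on that array had a median of 42.0%, and 97.4% of those were lower. In replicates 1 and 3 the Egfr local background was 84.8% and 73.3% of the spot, higher than 70.6% and 78.6% of spots of like brightness. With normexp on the local background, and with local background subtracted and median scaling, replicate 2 was the lowest array for Egfr, whereas it was the highest in the other 6 of 8 settings. Replicate 1 was the highest array for Erbb3 in 7 of the 8 settings and for Erbb2 in 6.

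**Figure D4:**
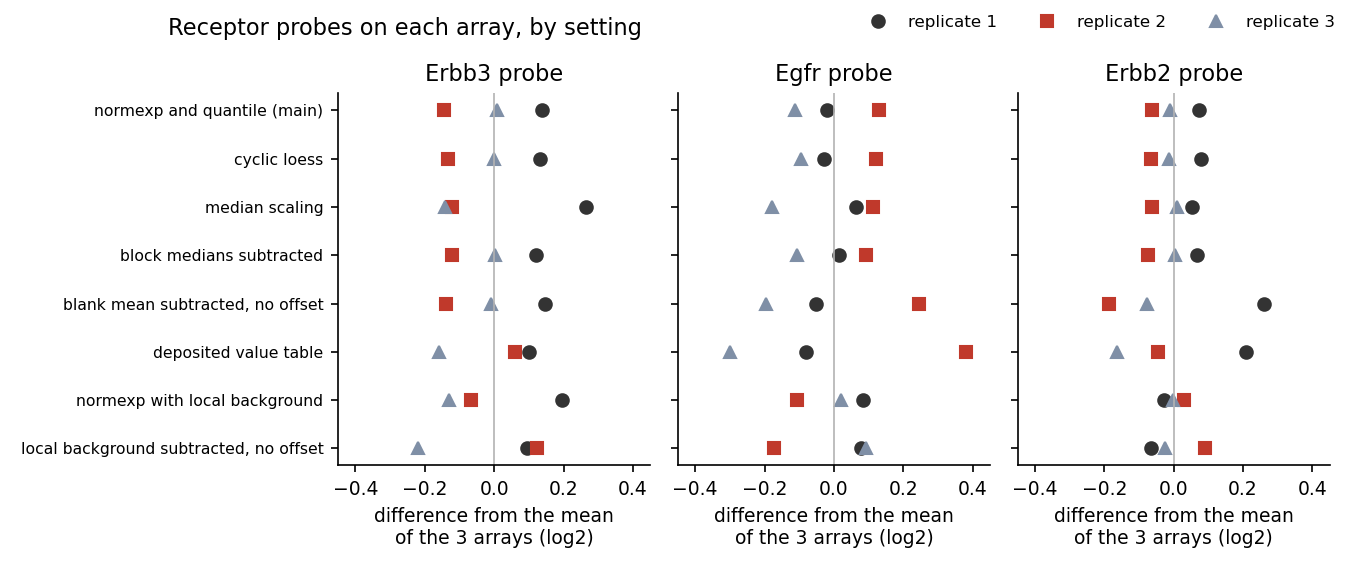
Difference of each array from the mean of the 3 arrays (log2) for each receptor probe, 1 row per way of treating the values, with circles for replicate 1, squares for replicate 2 and triangles for replicate 3. The Egfr square (replicate 2) lies to the right in the upper 6 rows and to the left in the 2 rows that use local background.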

How the data were processed

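Per the file headers, the scanner files hold the median intensity of each spot and its local background median, both linear, scanned at 3 gains, with nothing subtracted. The deposited value table holds intensity normalized by the authors. Set against the spots, each column was the spot median minus 55.4, 56.9 or 63.8, times a factor per array, to within 5.2e-06. The software behind these values is not given in the sources used here.

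Each array had 27456 spots. Blank spots were trimmed by 5% at each end before their mean and SD were taken. Normexp was fitted on all spots without local background, since that followed the signal. The number of arrays limits the precision. The fits used limma 3.58.1 under R 4.3.3, and the figures matplotlib 3.10.9 under Python 3.11.15. The variance test was tested on simulated data. Alternatives covered background, normalization, thresholds, filters and each array left out. The named genes are the 3 members, and no genes of like pattern were sought, since 1 group gives no pattern across conditions. Planned marker and pathway lists were not run for lack of gene names. No sequences of the probes were used here. The members were set by identifier and not by a measured value, but they, the lists and the tests were chosen with earlier results of these data known.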

Additional observations from a re-analysis of the deposited data

How the results depend on the processing

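The 3 receptor probes stayed above background on all arrays under each of 5 other thresholds, including the highest single negative control spot (added after seeing the data). From 61.6% to 80.6% of all gene probes did so under these thresholds, so the calls do not set the receptors apart. Leaving out an array keeps the calls on the other arrays by construction, so it could not change the calls of the receptor probes. The order of the receptor probes was the same in all 10 alternatives run. Of these, only cyclic loess, subtraction of block medians and the uses of local background could have changed it. The limma adjusted p of the variance test lay between 0.950 and 0.998 in all 11 alternatives run for it. Levels rest on the scale: with the blank mean subtracted they were 3.98 for Erbb2, 8.21 for Erbb3 and 6.64 for Egfr on the log2 scale, 3.16, 7.38 and 5.82 in the deposited table, and with local background subtracted (added after seeing the data) 3.49, 7.32 and 5.13. Normexp with local background gave 7.83 for Erbb3 and 6.52 for Egfr. Leaving out an array gave levels of 8.27 to 8.54 for Erbb3 and 7.18 to 7.38 for Egfr. The mean share of dimmer gene probes was 34.9%, 78.4% and 61.9% for Erbb2, Erbb3 and Egfr in the deposited table, which lists fewer probes, and 30.3%, 76.8% and 59.3% among probes above background on all arrays. It was 40.6% for Erbb2 and 62.0% for Egfr with normexp on local background, and 40.3% and 61.9% with local background subtracted. The SD of Erbb2 was 0.23 with the blank mean subtracted, 0.029 with normexp on local background and 0.19 in the deposited table. That of Egfr was 0.23 and 0.35 in the first and last of these, and that of Erbb3 was 0.23 with median scaling. Leaving out an array gave SDs of 0.035 (without replicate 1) to 0.10 for Erbb2, 0.093 (without replicate 2) to 0.20 for Erbb3 and 0.063 (without replicate 2) to 0.17 for Egfr, over 2 arrays each. Among the 16226 gene probes called on every array the count with a 2-fold range, 101, ran from 4 (without replicate 2; 52 without replicate 3) to 6027 of the 16005 probes with a value once local background was subtracted. The count passing the variance test, 2, ran from 1 to 41 (without replicate 2; 12 without replicate 1 or 3). Over all 20174 gene probes these counts were 103 and 33. The offset compresses dim probes by construction, and some settings also differed in the number of probes or arrays. No setting changed the offset alone, and the cause of these shifts was not tested. No paired analysis was possible because there is only 1 group.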
